A study of Rattus norvegicus with 44 samples.

Results

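Potassium channels are the largest family of ion channels, and the genes that encode their pores and subunits were followed here in the dentate gyrus (DG) of young and older rats. A gene belonged to the set when its symbol began with Kcn followed by letters and a number, with Kcne2 left out, and when its normalized value, summed over the rows of the gene identifier, averaged at least 5 over 44 rats. Of 18347 gene identifiers in the table, 84 matched by name and 74 passed the limit. These were 34 voltage-gated genes of 37, all 7 calcium-activated genes, 12 inward rectifiers of 14, 10 two-pore genes of 14 and 11 auxiliary subunits of 12.

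All 44 animals were male F344 rats, and each gave 1 library of poly(A)-selected RNA from the DG. Young rats, which the authors' attribute table lists under vehicle, were 6 months old (YNG, n = 10). The older rats were 12 months old when treatment began and 18 months old at its end, and received vehicle (AV, n = 12), ABT-263 at 12 mg/kg (AA, n = 11) or dasatinib at 1.2 mg/kg with quercetin at 12 mg/kg (ADQ, n = 11). ABT-263, a blocker of Bcl-2 family proteins, and the pair of a kinase inhibitor and a flavonoid are senolytics, agents meant to clear senescent cells. Doses were given by mouth for 5 days per cycle in 8 cycles before the behavioral tests, and the tissue was taken 2 weeks after a last round. The labels give the older rats only their starting age, so the drug group was read from the authors' attribute table by rat name.

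Potassium channels let potassium leave or enter the cell and so set the resting potential, end the action potential and limit repetitive firing. Voltage-gated channels open on depolarization, calcium-activated channels open when calcium or sodium enters, inward rectifiers and two-pore channels carry the resting or leak conductance, and auxiliary subunits change gating and transport to the membrane. The granule cells of the DG are known for a very negative resting potential and sparse firing, and astrocytes in the same tissue take up extracellular potassium through inward rectifiers. In bulk tissue, fewer cells of a type and less RNA per cell cannot be told apart.

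The estimated depth was 10166556 to 24328321 reads per rat, and the normalized values summed to 14297964 to 20579982 per rat. The rats fall into a lower-numbered series, a (YNG 6, AV 6, AA 5, ADQ 5), and a higher-numbered series, b (4, 6, 6 and 6), which no label calls a batch. Markers of dentate granule cells were detected for 6 of 7 genes and their summed values ran from 9565 to 14505 in YNG and 10505 to 13759 in ADQ, with wider ranges of 6164 to 14079 for the AV rats and 2826 to 15067 for the AA rats. The 6 CA1 markers summed to 2394 to 17363 in YNG, 2005 to 28433 in AV, 1861 to 42957 in AA and 2380 to 11616 in ADQ. The part of neighboring CA1 tissue in these sums was not tested. AA rat 4107 had both the lowest granule cell sum and the highest CA1 sum. AV rat 3989 had the highest sums for CA1 (28433), oligodendrocytes (174723) and astrocytes (90070) in its group. Rat 3989 was also highest in AV for microglia (7507), endothelial cells and pericytes (7396) and interneurons (9025). The members together made up 0.251% to 0.523% of a rat's total value. Results that change without rats 3989 and 4107 are given both ways. That setting does not remove every library with a CA1 sum above all YNG rats. It keeps AV rats 3890 (25409) and 4571 (20964.5) and AA rat 3996 (19147). Rat 3996 also had a granule cell sum of 5912, below that of rat 3989.

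The potassium channel genes as a set did not stand out from the transcriptome. A gene was called when its unadjusted p in limma was below 0.05, the threshold of the study. For older rats of all 3 groups against YNG, 8 of 74 members were higher (10.8%) and 12 lower (16.2%), while 15.7% of all 15598 genes tested were called higher and 16.7% lower. After Benjamini-Hochberg adjustment over all genes, 9 members differed (12.2%) against 14.9% of all genes. The median log2 difference of the members was 0.033, and that of all genes was 0.0039. The shares of 15.7% and 16.7% are also the background for the class counts given below for older rats.

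Against YNG, the share of members called was below that of all genes in AV and AA. In AV, 4 members were higher (5.41%) against a background of 10.6% and 6 were lower (8.11%) against 10.7%. After adjustment 1 AV member remained (1.35%) against 2.35%. In AA the counts were 8 higher (10.8%) against 12.6% and 7 lower (9.46%) against 14.1%, with 1 member past adjustment (1.35%) against 3.85%. In ADQ, 9 members were higher (12.2%) against 13.5% and 11 lower (14.9%) against 14.6%. More ADQ members passed adjustment than the background share, 9 (12.2%) with 7.08% of all genes, a difference that was not tested. These 3 comparisons share the YNG rats.

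Between the older groups few members were called and none passed adjustment, with a smallest adjusted p in limma of 0.318, reached in the comparison of ADQ with AV. Comparing AA with AV, 2 members were higher against a background of 1.4% and 3 lower against 3.1%. Comparing ADQ with AV, the counts were 2 higher against 3.42% and 3 lower against 5.9%. Comparing AA with ADQ, they were 4 higher against 2.13% and 2 lower against 2.4%.

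**Figure D1:**
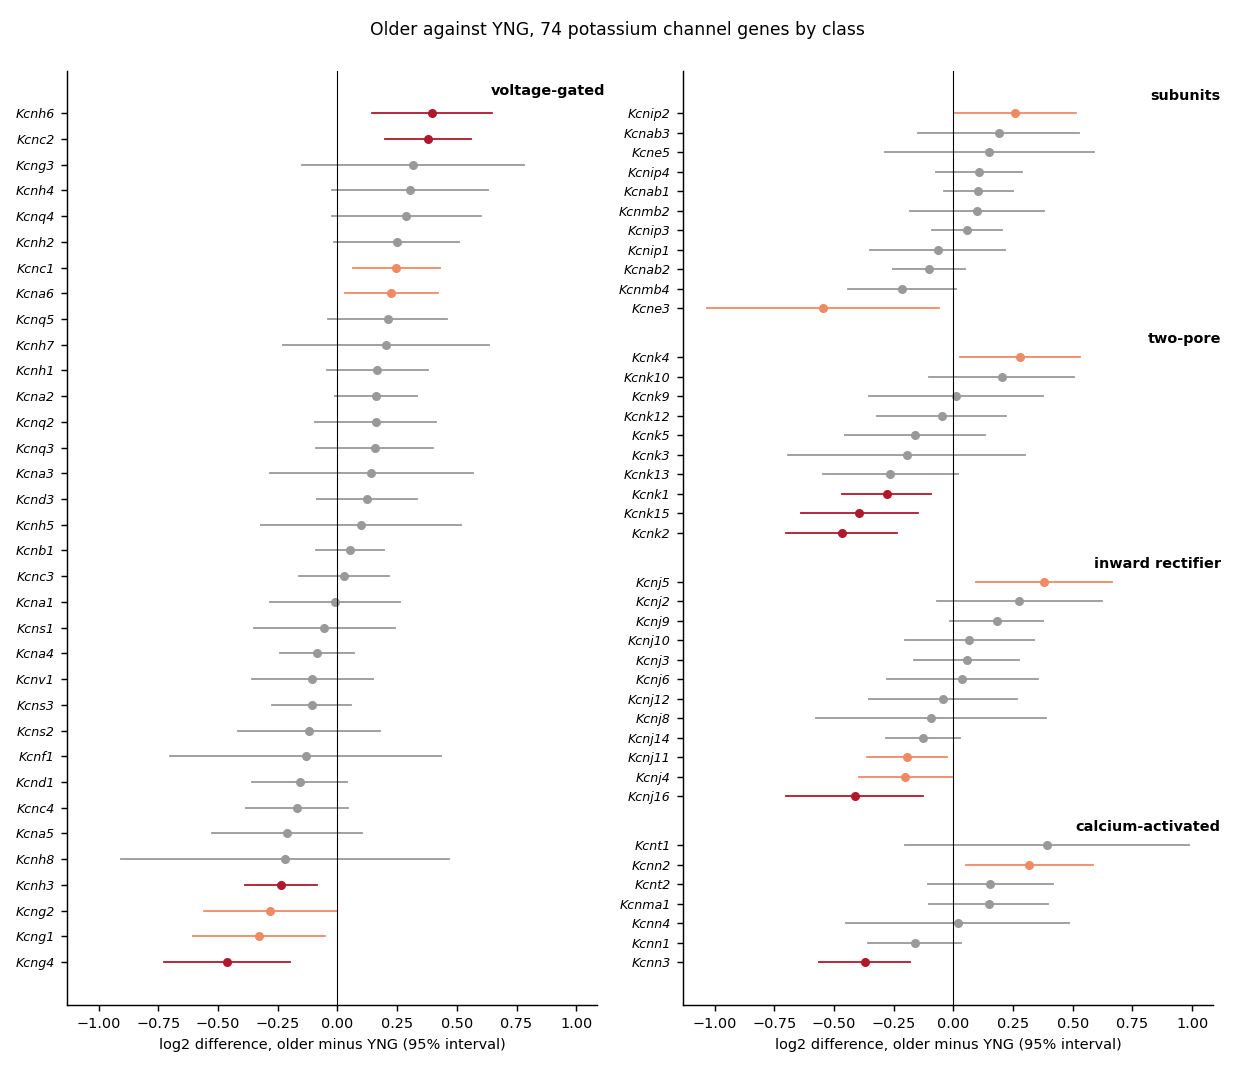
Log2 difference between older rats (mean of the AV, AA and ADQ group means) and YNG for each of the 74 members, sorted within class; points are estimates and lines their 95% intervals from limma. Dark red marks the 9 members with an adjusted p below 0.05, orange the other members with an unadjusted p below 0.05, and gray the rest; estimates run from -0.55 (Kcne3) to 0.40 (Kcnh6).

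Of the 9 members with an adjusted p below 0.05 for older rats against YNG, 4 have a single start site in RefSeq's promoter table for build GRCr8, and the 250 bases before that start are shown because they let the members that differed be compared at sequence level. The strand of the gene is read 5′ to 3′ and capitals mark each CG dinucleotide. Kcnn3 (chr2:177234090-177234339, plus strand), Kcng4 (chr19:64597889-64598138, minus strand) and Kcnj16 (chr10:96517074-96517323, plus strand) were lower in older rats, and Kcnh6 (chr10:91449401-91449650, plus strand) was higher. Against YNG, Kcnj16 was not called in AV and Kcnh6 was not called in AA.
Kcnn3: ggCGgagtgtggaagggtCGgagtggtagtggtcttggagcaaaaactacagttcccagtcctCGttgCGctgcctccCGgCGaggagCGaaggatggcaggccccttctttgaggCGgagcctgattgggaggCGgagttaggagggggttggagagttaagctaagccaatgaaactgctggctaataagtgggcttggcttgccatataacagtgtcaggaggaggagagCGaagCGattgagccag
Kcng4: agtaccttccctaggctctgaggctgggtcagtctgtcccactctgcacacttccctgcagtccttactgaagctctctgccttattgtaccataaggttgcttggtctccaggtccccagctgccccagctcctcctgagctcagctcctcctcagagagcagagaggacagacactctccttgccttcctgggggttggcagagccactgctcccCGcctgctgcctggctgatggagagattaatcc
Kcnj16: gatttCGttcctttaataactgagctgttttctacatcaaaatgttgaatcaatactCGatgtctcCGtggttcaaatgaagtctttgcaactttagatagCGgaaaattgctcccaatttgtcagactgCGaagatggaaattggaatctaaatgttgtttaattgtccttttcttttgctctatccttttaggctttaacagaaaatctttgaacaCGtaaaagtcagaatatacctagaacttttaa
Kcnh6: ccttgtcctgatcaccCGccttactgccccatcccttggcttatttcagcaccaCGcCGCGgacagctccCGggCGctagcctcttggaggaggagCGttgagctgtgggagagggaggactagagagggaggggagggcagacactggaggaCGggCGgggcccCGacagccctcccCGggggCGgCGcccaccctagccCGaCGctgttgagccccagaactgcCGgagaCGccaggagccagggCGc

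The stretches of these 4 genes differ widely in base composition. Kcnh6 held 18 CG dinucleotides at 69.6% GC, Kcnn3 held 11 at 57.2%, Kcnj16 held 6 at 33.6% and Kcng4 held 1 at 58.4%. Over 33365 such stretches of all genes the median was 5 CG dinucleotides and 51.6% GC, and over 55 stretches found for 50 members it was 13 and 65.2%. The GC box (GGGCGG, either strand), whose letters include a CG, was in 31 of the 55 and in 30.5% of all stretches, and the CCAAT box (CCAAT, either strand) was in 13 of the 55 and in 34% of all. The TATA box letters (TATAAA, either strand) were in 0 of the 55 and in 12.9% of all, and the cAMP response element (TGACGTCA) was in 0 of the 55 and in 1.59% of all. Among the 4 shown, Kcnh6 held the GC box, and Kcnn3 and Kcnj16 held the CCAAT box.

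Among the voltage-gated genes, the Kv3 channel gene Kcnc2 rose and the modifier gene Kcng4 fell in every older group. Of 34 members, 4 were higher and 4 lower in older rats, and 26 were not called, with a class median of 0.076 on the log2 scale. Kv3 channels open and close rapidly and allow fast firing, above all in parvalbumin interneurons. Kcnc2 lay between 351 and 597 in YNG with a median of 495, between 414 and 992 in AV (median 570), between 503 and 767 in AA (657) and between 593 and 865 in ADQ (641). The groups overlapped, yet 32 of 34 older rats were above the YNG median and 10 of 11 ADQ rats were above every YNG rat. For older rats together the log2 difference of Kcnc2 from YNG was 0.38 ± 0.089 (SE; adjusted p = 0.00756). AV rats differed by 0.29 ± 0.11 (adjusted p = 0.121), AA rats by 0.37 ± 0.11 (adjusted p = 0.0471) and ADQ rats by 0.49 ± 0.11 (adjusted p = 0.0138). It was 0.34 in series a and 0.42 in series b. With only the row of highest mean for each gene, the AV difference of Kcnc2 was 0.19 with an unadjusted p of 0.102 in limma, and without rats 3989 and 4107 the adjusted p in AA was 0.064.

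Kcnc1, the other Kv3 gene of fast-spiking cells, moved the same way. It lay between 1209 and 1822 in YNG (median 1430), 1325 and 2088 in AV (1539), 1201 and 4038 in AA (1842) and 1582 and 1956 in ADQ (1758). All 11 ADQ rats and 10 of 11 AA rats were above the YNG median, and the AA value of 4038 in rat 3988 stood far above the next AA rat at 1961. Kcnc1 rose by 0.35 ± 0.11 in AA and 0.27 ± 0.11 in ADQ on the log2 scale, with adjusted p of 0.0544 and 0.104. Beside both genes, the summed value of 6 interneuron markers (6 of 6 detected, none with a median of 0) ran from 4956 to 6673 in YNG with a median of 5489. Its medians in the older groups were 6521 (AV, from 4622 to 9025), 6991 (AA, 5985 to 8961) and 6754 (ADQ, 5583 to 8268), and its part in the Kv3 values was not tested.

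Kcng genes encode subunits that are silent alone and modify Kv2 channels. Of 4 such members, 3 were lower in older rats (Kcng4, Kcng1 and Kcng2) and 0 higher, beside 16.7% and 15.7% of all genes. The median of the 4 was -0.30. Of 3 Kcns genes, also Kv2 modifiers, 0 were called, and without rats 3989 and 4107 Kcns3 was lower (unadjusted p = 0.0472). The difference between the families was not tested. Kcng4 lay between 318 and 684 in YNG (median 531), 271 and 673 in AV (340), 248 and 641 in AA (349) and 267 and 476 in ADQ (312). The groups overlapped, with 31 of 34 older rats below the YNG median and 14 below every YNG rat. On the log2 scale Kcng4 fell by 0.37 ± 0.16 in the AV rats, by 0.46 ± 0.16 in the AA rats and by 0.56 ± 0.16 in the ADQ rats, and the adjusted p was 0.165, 0.0722 and 0.0306. For older rats together the difference was -0.46 ± 0.13 (adjusted p = 0.02), with -0.51 in series a and -0.38 in series b. Without YNG rat V12 the AV difference of Kcng4 had an unadjusted p of 0.0541. Kcng1 and Kcng2, named here after their values were seen, differed by -0.33 ± 0.14 and -0.28 ± 0.14 in older rats, with adjusted p of 0.0907 and 0.15, and Kcng2 was not called without rats 3989 and 4107 (unadjusted p = 0.0661).

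The ether-a-go-go genes split. Kcnh6, an Erg-type channel gene, rose, and Kcnh3, an Elk-type channel gene expressed in forebrain neurons, fell. Kcnh6 lay between 27.2 and 58.7 in YNG (median 35.9), 35.9 and 60.0 in AV (45.7), 25 and 63.3 in AA (50.2) and 42.3 and 78.3 in ADQ (53.8). All 12 AV rats and all 11 ADQ rats were above the YNG median, and 4 ADQ rats were above every YNG rat. In older rats Kcnh6 differed by 0.40 ± 0.12 (adjusted p = 0.0308), and it did so by 0.30 in series a and 0.50 in series b. ADQ alone differed from YNG by 0.59 ± 0.15 (adjusted p = 0.0218), while AV differed by 0.33 ± 0.15 (adjusted p = 0.193), a call that was lost with the row of highest mean alone (unadjusted p = 0.0992). Kcnh6 was not called for AA against YNG.

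Kcnh3 lay between 1939 and 2983 in YNG with a median of 2705, between 1739.7 and 2612 in AV (2336), between 1969.6 and 3142 in AA (2407) and between 1628 and 2482 in ADQ (2085). All 12 AV and all 11 ADQ rats were below the YNG median. Kcnh3 fell by 0.24 ± 0.075 in older rats on the log2 scale (adjusted p = 0.0329) and by 0.38 ± 0.092 in ADQ (adjusted p = 0.0172), and by 0.37 in series a and 0.09 in series b for older rats. Against YNG, Kcnh3 was called in AV and ADQ but not in AA. Its annotated span overlaps Mcrs1, whose difference in older rats was -0.08 ± 0.052 with an unadjusted p of 0.149 and in AV -0.16 ± 0.062 with 0.0139, and the sources used here do not say whether reads were counted by strand.

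Kcnq5, an M-current channel gene that steadies the membrane near threshold, was called for ADQ against YNG, and without rats 3989 and 4107 for older rats too (unadjusted p = 0.0317). It lay between 888 and 1692 in YNG (median 1350), 890 and 2624 in AV (1331), 781 and 1870 in AA (1403) and 1393 and 2500 in ADQ (1896). All 11 ADQ rats were above the YNG median and 6 above every YNG rat. Kcnq5 differed from YNG by 0.48 ± 0.15 in ADQ (adjusted p = 0.0457), with 0.51 in series a and 0.43 in series b. Kcna6, a Kv1 delayed rectifier gene, averaged 1198 ± 133 in the 10 YNG rats and 1487 ± 313 in the 12 AV rats (SD), a rise of 0.29 ± 0.12 (adjusted p = 0.144). Kcnh1 in ADQ (0.28) and Kcnh2 (0.40) and Kcnh4 (0.46) in AA, named after their values were seen, had adjusted p of 0.146, 0.099 and 0.128. Without rats 3989 and 4107, Kcnh1 was also called in AA (unadjusted p = 0.0315) and in older rats together (0.0138), as was Kcnh4 in older rats together (0.041).

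**Figure D2:**
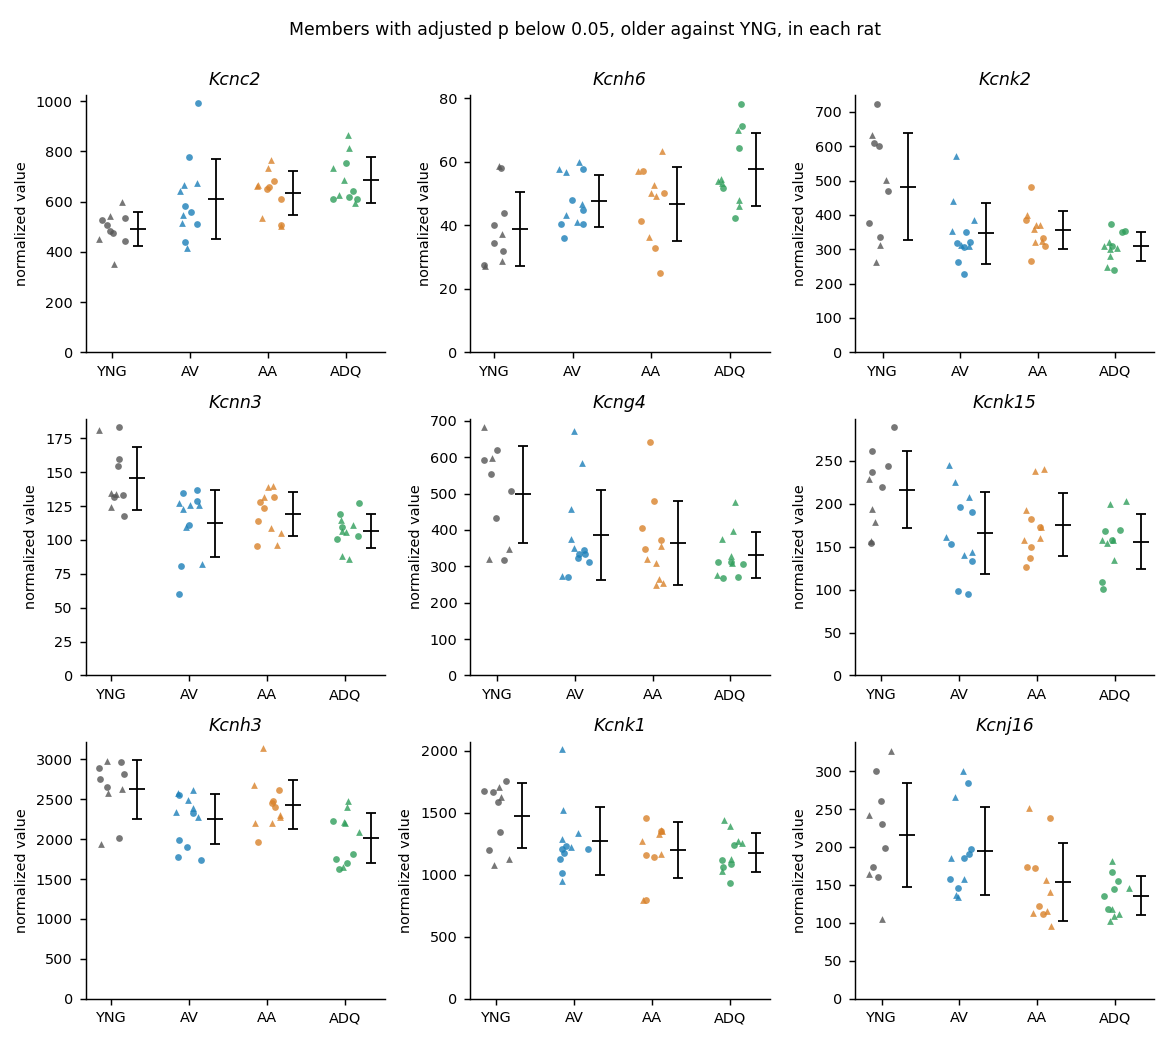
Normalized value of the 9 members with an adjusted p below 0.05 for older rats against YNG, 1 point per rat (circles series a, triangles series b) by group, with the mean and SD at the right of each group; axes start at 0. Kcnc2 and Kcnh6 were higher in older rats and the other 7 lower, and in all 9 panels the older groups overlap YNG. Only Kcnc2, Kcng4, Kcnk2 and Kcnn3 were called against YNG in each of AV, AA and ADQ.

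Of the 7 calcium-activated genes, 1 was higher and 1 lower in older rats, and these were 2 small-conductance (SK) channel genes. SK channels open with calcium entry and carry the afterhyperpolarization that follows a spike. Kcnn3, which encodes SK3, lay between 118 and 183 in YNG (median 134), 60.4 and 136 in AV (124), 95.4 and 140 in AA (123) and 85.6 and 127 in ADQ (107). Of 34 older rats, 30 were below the YNG median and 19 below every YNG rat, among them 9 of 11 ADQ rats. On the log2 scale AV rats fell by 0.39 ± 0.11 (adjusted p = 0.047), AA rats by 0.28 ± 0.12 (adjusted p = 0.114) and ADQ rats by 0.44 ± 0.12 (adjusted p = 0.0225). For older rats together the difference of Kcnn3 was -0.37 ± 0.095 (adjusted p = 0.0113), and it was -0.38 in series a and -0.35 in series b. AV rat 3989 had the lowest Kcnn3 value, and without it and AA rat 4107 the AV difference was -0.32 with an adjusted p of 0.085.

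Kcnn2, which encodes SK2, had the opposite sign. It lay between 170 and 405 in YNG (median 254), 177 and 639 in AV (295), 228 and 581 in AA (299) and 287 and 391 in ADQ (315). All 11 ADQ rats were above the YNG median, and the groups overlapped. The log2 difference of Kcnn2 was 0.32 ± 0.13 in older rats (adjusted p = 0.088). The highest AV and AA values were those of rats 3989 and 4107, and without them the AA call was lost (unadjusted p = 0.085). Kcnn1, encoding SK1, was at 267 ± 37 in YNG and 241 ± 48.9 in older rats (SD), and its difference of -0.16 ± 0.097 was not called (adjusted p = 0.243).

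The sodium-activated genes Kcnt1 and Kcnt2 and the large-conductance pore gene Kcnma1 were not called for older rats against YNG. Kcnt1 lay between 171 and 670 in YNG with a median of 244 and between 126 and 2007 in AA with a median of 326. The highest AA values of Kcnt1, 2007 and 1381, were those of rats 3988 and 3996. Kcnt2 rose in ADQ alone, at 376 ± 88.4 in YNG and 487 ± 87.9 in ADQ (SD), by 0.38 ± 0.16 (adjusted p = 0.107).

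Among the inward rectifiers, 1 of 12 was higher and 3 were lower in older rats. Kcnj16 encodes Kir5.1, which forms a pH-sensitive channel with the Kir4.1 product of Kcnj10 in astrocytes. It lay between 105 and 327 in YNG (median 214), 134 and 301 in AV (186), 96.4 and 252 in AA (140) and 103 and 182 in ADQ (135). All 11 ADQ rats were below both the YNG median and the AV median, yet the range of YNG covered all but 2 of the 34 older rats. Kcnj16 fell by 0.62 ± 0.17 in ADQ (adjusted p = 0.0276) and by 0.49 ± 0.17 in AA (adjusted p = 0.0769) on the log2 scale. In older rats together it differed by -0.41 ± 0.14 (adjusted p = 0.0444), with -0.41 in series a and -0.38 in series b.

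Its partner Kcnj10 was not called in any of the 7 comparisons, with a difference of 0.07 ± 0.135 in older rats (unadjusted p = 0.623). The Kcnj10 difference in series b minus that in series a was -0.70 (interaction in limma, unadjusted p = 0.00895, adjusted p = 0.103). Kcnj2, a neighbor of Kcnj16 on the chromosome, was not called either (0.28 ± 0.17, unadjusted p = 0.114), but it was called for older rats without rats 3989 and 4107. The 6 astrocyte markers (6 of 6 detected, none with a median of 0) summed to 39926 to 61196 in YNG with a median of 46798. The medians of the older groups were 54043 (AV, from 44400 to 90070), 45096 (AA, 39872 to 58028) and 46699 (ADQ, 43912 to 52109). The part of astrocyte content in the Kcnj16 values was not tested.

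Of the other inward rectifiers, Kcnj11 encodes the Kir6.2 pore of neuronal ATP-sensitive channels and Kcnj4 encodes Kir2.3, a strong rectifier of forebrain neurons. Kcnj11 averaged 817 ± 118 in YNG and 705 ± 137, 754 ± 75.8 and 688 ± 111 in AV, AA and ADQ (SD), and fell by 0.19 ± 0.084 in older rats on the log2 scale (adjusted p = 0.1). Kcnj4 was at 2391 ± 362 in YNG and 1916 ± 292 in ADQ (SD), and differed in older rats by -0.20 ± 0.096 (adjusted p = 0.139). The call of Kcnj4 in older rats was lost with upper quartile scaling (unadjusted p = 0.0835) and without rats 3989 and 4107 (unadjusted p = 0.058).

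Kcnj5, a subunit of G protein-gated channels, was the 1 inward rectifier called higher for older rats together. It lay between 15.7 and 38.3 in YNG (median 28.5), 24.5 and 69.1 in AV (38.5), 29.9 and 46.7 in AA (36.1) and 17.6 and 46.0 in ADQ (31.6). All 11 AA and 11 of 12 AV rats were above the YNG median, while ADQ was spread around it with 6 rats above and 5 below. Compared with YNG, AV rats differed by 0.57 ± 0.17 (adjusted p = 0.0554), AA rats by 0.43 ± 0.17 (adjusted p = 0.108) and older rats together by 0.38 ± 0.14 (adjusted p = 0.0599).

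The two-pore channels had the lowest class median for older rats, -0.18 on the log2 scale. Of 10 members, 3 were lower, 1 higher and 6 not called, beside 16.7% of all genes called lower and 15.7% higher. Two-pore channels carry background potassium leak. Kcnk2 encodes TREK-1, which responds to stretch, lipids and acid. It lay between 263 and 723 in YNG (median 485), 227 and 571 in AV (319), 266 and 480 in AA (359) and 240 and 374 in ADQ (308). Of 34 older rats 33 were below the YNG median, yet the lowest YNG rats lay within the older range. On the log2 scale AV rats fell by 0.44 ± 0.14 (adjusted p = 0.0702), AA rats by 0.38 ± 0.14 (adjusted p = 0.0869) and ADQ rats by 0.58 ± 0.14 (adjusted p = 0.0181). In older rats the difference was -0.47 ± 0.12 (adjusted p = 0.00993), at -0.64 in series a and -0.23 in series b.

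Kcnk1 encodes TWIK-1, a leak channel of granule cells and astrocytes. It lay between 1080 and 1752 in YNG (median 1607), 949.8 and 2009 in AV (1217), 793 and 1453 in AA (1273) and 935 and 1444 in ADQ (1129). All AA and ADQ rats and 11 of 12 AV rats were below the YNG median. The difference of Kcnk1 in older rats was -0.28 ± 0.093 (adjusted p = 0.038), and it was -0.43 in series a and -0.10 in series b. Against YNG, Kcnk1 was called in AA and ADQ but not in AV.

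Kcnk15, a TASK-type gene, lay between 154 and 289 in YNG (median 224), 94.9 and 245 in AV (157), 126 and 240 in AA (173) and 101 and 204 in ADQ (157). The older groups were lower but overlapped YNG, with 30 of 34 older rats below the YNG median. Kcnk15 differed by -0.39 ± 0.12 in older rats (adjusted p = 0.029), at -0.68 in series a and -0.06 in series b. It was called in AV and ADQ against YNG, and in AA only without rats 3989 and 4107 (unadjusted p = 0.0261 in limma). Its annotated span overlaps Rims4, for which the difference in older rats was -0.03 ± 0.13 (unadjusted p = 0.805). Kcnk4, encoding the mechanosensitive channel TRAAK, was the two-pore gene that rose, from 313 ± 69.2 in YNG to 403 ± 88.8 in AA and 389 ± 75.4 in ADQ (SD), by 0.28 ± 0.13 in older rats (adjusted p = 0.111). Leaving out 1 rat at a time lost the Kcnk4 call in ADQ in 13 of 44 fits and that in older rats in 4, and without rats 3989 and 4107 the difference in older rats was 0.32 (adjusted p = 0.0488). Kcnk13, named after its values were seen, fell in ADQ by 0.42 ± 0.17 (adjusted p = 0.102).

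Of the 11 auxiliary subunits, 1 was higher and 1 lower in older rats and none passed adjustment. Kcnip2 encodes KChIP2, a calcium-binding subunit of Kv4 channels, and was at 2855 ± 736 in YNG and 3374 ± 775 in older rats (SD). The log2 difference of Kcnip2 was 0.26 ± 0.13 (adjusted p = 0.145), and the call was lost in 17 of 44 fits that each left out 1 rat. Kcne3, a single-pass subunit, was near the lower limit of detection, at 12.5 ± 3.66 in YNG and 9.14 ± 5.14 in older rats (SD), and differed by -0.55 ± 0.24 (adjusted p = 0.106). Kcnmb4, the neuronal beta subunit of the large-conductance channel, and the Kv1 beta subunits Kcnab1 and Kcnab2 were not called, with differences of -0.21 ± 0.11, 0.11 ± 0.071 and -0.10 ± 0.075.

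The treated groups were also compared with AV, the vehicle group of the same age. Kcnj16 and Kcnj8 were called for both treatments against AV, in comparisons that share the AV rats. Neither gene was called for AV against YNG. In the Kcnj16 values given above, 9 of 11 AA and 11 of 11 ADQ rats were below the AV median of 186. Kcnj16 differed from AV by -0.36 ± 0.17 in AA (unadjusted p = 0.0371, adjusted p = 0.999) and by -0.49 ± 0.17 in ADQ (unadjusted p = 0.00472, adjusted p = 0.318). The AA call was lost in 8 of 44 fits that left out 1 rat, and the 2 differences in the series were -0.26 and -0.43 for AA and -0.40 and -0.57 for ADQ in a and b.

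The Kcnj8 values of the AV rats were widely spread. Kcnj8 encodes Kir6.1, which forms the vascular ATP-sensitive channel with SUR2, the product of the neighboring gene Abcc9, and marks pericytes in brain. It lay between 29 and 101 in YNG (median 49.1), 20.1 and 223 in AV (44.7), 25.9 and 83.2 in AA (41.1) and 27.9 and 47.5 in ADQ (37). In AV 4 rats, numbers 3989, 4009, 4568 and 3999, were above every YNG rat at 223, 200.5, 163 and 109, while the AV median was below that of YNG. AA rats differed from AV in Kcnj8 by -0.57 ± 0.28 (adjusted p = 0.999) and ADQ rats by -0.82 ± 0.28 (adjusted p = 0.324). Without AV rat 3989 the AA difference was -0.41 with an unadjusted p of 0.124.

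The same 4 AV rats were above every YNG rat for Abcc9 and for the sum of 4 vascular markers other than Abcc9 (Cldn5, Flt1, Pdgfrb and Rgs5). For Abcc9, AV rat 4571 was above every YNG rat too, at 169. Single markers differed. Pdgfrb was 580 to 708 in the 4 rats and at most 574 in the other AV rats. Cldn5 was 1646 to 3276 in the 4 rats and up to 1652 in the others. Rgs5 was 166 to 195 in the 4 rats and highest in AV rat 4010 (225), whose Kcnj8 was 41.1. Abcc9 lay between 56.5 and 165 in YNG (median 94.8), 63.1 and 397 in AV (143), 55.2 and 182 in AA (118) and 79.5 and 129 in ADQ (99.2). AA rats differed from AV in Abcc9 by -0.59 ± 0.24 (adjusted p = 0.999) and ADQ rats by -0.70 ± 0.24 (adjusted p = 0.350). The 4 vascular markers, none with a median of 0, summed to 1183 to 3629 in YNG and 1968 to 7022 in AV. The ranges were 2195 to 3387 for the AA rats and 2042 to 2551 for the ADQ rats. The 4 rats had 7022 (3989), 4506 (4568), 4098 (4009) and 3698 (3999) for these markers, and the part of vessel content in the Kcnj8 values was not tested.

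**Figure D3:**
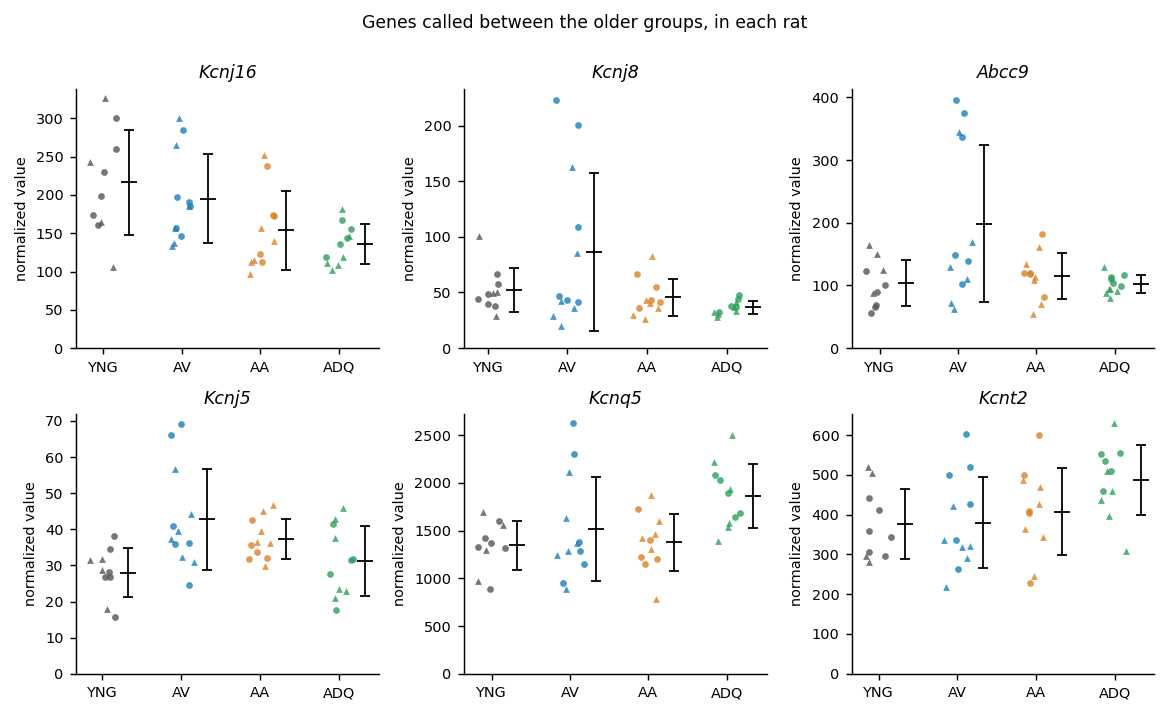
Normalized value of 5 members called between older groups and of Abcc9, the partner gene of Kcnj8, 1 point per rat (circles series a, triangles series b), with the mean and SD at the right of each group; axes start at 0. Kcnj16 was lower in AA and ADQ than in AV, 4 AV rats stand apart for Kcnj8 and Abcc9, and Kcnq5 was higher in ADQ than in the other groups.

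ADQ also differed from AV in Kcnj5, Kcnt2 and Kcnq5. Of these, only Kcnj5 was called for AV against YNG, where it was higher in AV. Kcnj5 was at 42.8 ± 14 in AV and 31.2 ± 9.61 in ADQ (SD), a difference of -0.44 ± 0.16 with an adjusted p of 0.399. Kcnt2 was at 380 ± 115 and 487 ± 87.9 (SD), a difference of 0.39 ± 0.15 with an adjusted p of 0.414. Kcnq5 was at 1519 ± 546 and 1864 ± 333 (SD), a difference of 0.35 ± 0.14 with an adjusted p of 0.439, and all 11 ADQ rats were above the AV median.

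AA differed from AV in 3 further members, none of which was called for AV against YNG. Kcnj9, a G protein-gated subunit, was at 1497 ± 351 in AV and 1725 ± 223 in AA (SD), a difference of 0.23 ± 0.11, and 9 of 11 AA rats were above the AV median. The span of Kcnj9 overlaps Igsf8, whose difference was 0.07 ± 0.13, and the Kcnj9 call was lost with upper quartile scaling (unadjusted p = 0.0541). Kcnc1 differed by 0.23 ± 0.11 with AA rat 3988 and by 0.12 (unadjusted p = 0.122) without it. Kcne3 was at 11.5 ± 5.03 in AV and 7.21 ± 4.22 in AA (SD), at -0.61 ± 0.28. Without rats 3989 and 4107, Kcnj16 was the 1 of these 5 calls of AA against AV that held, and the count was 2, with Kcnip4 added.

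The treated groups differed from each other in 6 members, all by unadjusted p. Kcnh3 was higher in AA than in ADQ, at 2431 ± 310 against 2015 ± 314 (SD), by 0.28 ± 0.089 (unadjusted p = 0.00335). Kcnq5 was lower in AA, at 1379 ± 298 against 1864 ± 333 (SD), by 0.45 ± 0.15 on the log2 scale (unadjusted p = 0.00394). Kcnip3, which encodes a KChIP also known as the transcriptional repressor DREAM, was at 1019 ± 169 in AA and 865 ± 133 in ADQ (SD) and differed by 0.24 ± 0.087. Kcnh6 differed by -0.31 ± 0.15 and Kcnj4 by 0.24 ± 0.11, calls that were lost in 8 and 10 of 44 fits that each left out 1 rat. For Kcnk3, a TASK channel gene, the AA rats lay between 67.3 and 657 with a median of 106 and the ADQ rats between 45.7 and 139 with a median of 88.1. The Kcnk3 difference of 0.65 ± 0.29 was 0.42 (unadjusted p = 0.11) without AA rat 3988, which held the highest value.

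The 2 rat-number series gave differing pictures of the members. For older rats against YNG, 45 of 74 members had the same sign in series a and in series b, which share no rats, and Pearson's r over the members was 0.26. For ADQ against YNG, 53 of 74 had the same sign with r of 0.63, for AA 41 with r of 0.19 and for AV 42 with r of -0.11. Genes are not independent replicates, and the points of a panel share the libraries and scaling of a series. The number of members called for older rats against YNG was 27 in series a and 4 in series b. The share of all genes called within each series is not given here, so these counts are not a result about the members. Differences between the series were not particular to the members. The difference between older rats and YNG varied between the series (interaction, unadjusted p in limma below 0.05) for 3161 of 15598 genes. Among the 74 members it did so for 10. After adjustment the counts were 653 genes and 0 members.

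**Figure D4:**
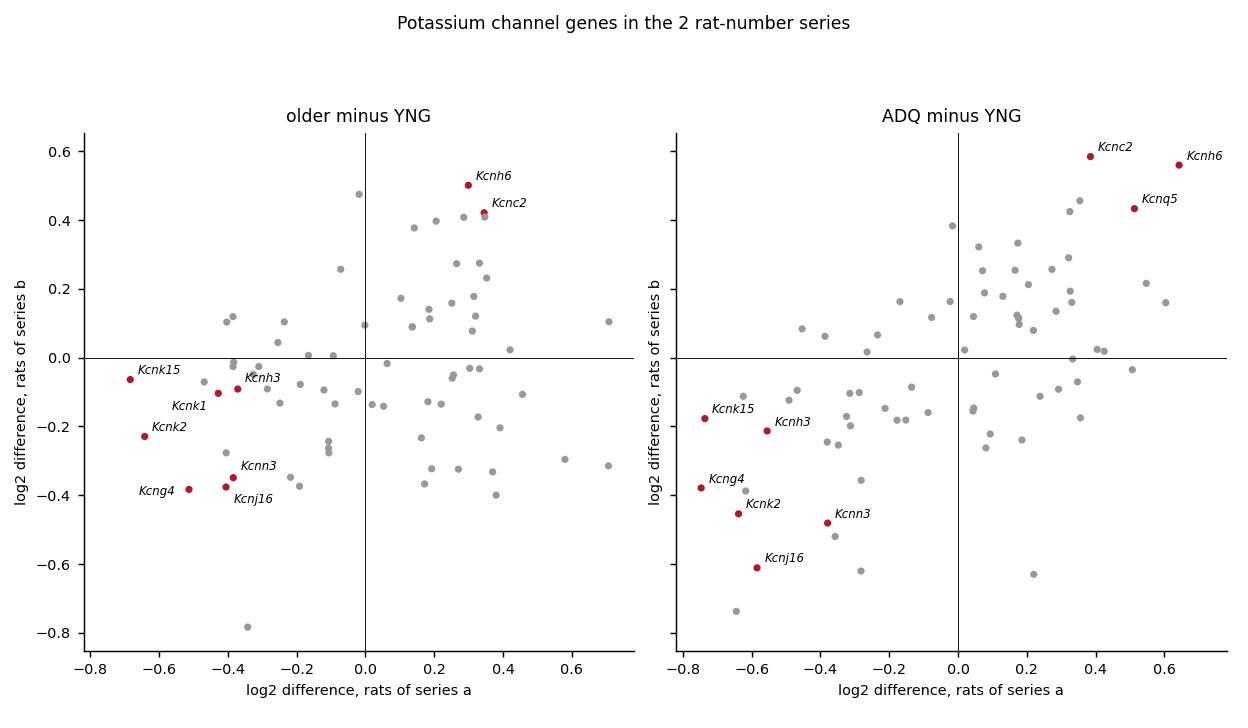
Log2 difference from YNG of each of the 74 members in the rats of series a (horizontal axis) and series b (vertical axis), for older rats (left) and ADQ (right). Red points with names have an adjusted p below 0.05 in all rats. All 18 red points have the same sign in both series, and Kcnk15 is near 0 in series b on the left (-0.06). The red points were chosen in the rats of both series together, so their shared sign is no independent test of agreement.

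Outside the Kcn names, 27 genes were listed whose proteins sit in potassium channel complexes, conduct related currents or move potassium, and 25 were tested. For older rats against YNG, 4 were higher (15.7% of all genes) and 4 lower (16.7%) with a median of 0.038, and 3 passed adjustment (14.9%). Slc12a7, the potassium-chloride cotransporter KCC4, lay between 54.1 and 102 in YNG (median 80.0), 63.5 and 184 in AV (127), 59.1 and 137 in AA (108) and 97.8 and 129 in ADQ (111). It was above every YNG rat in 24 of 34 older rats and rose by 0.53 ± 0.12 (adjusted p = 0.00605). Adam22, a receptor for Lgi1 that organizes Kv1 channels and synapses, rose by 0.39 ± 0.13 (adjusted p = 0.038). AV rats had 3 listed genes higher and 2 lower than YNG, where 10.6% and 10.7% of all genes were called. AA rats had 3 and 5, beside 12.6% and 14.1%, and ADQ rats 3 and 2, beside 13.5% and 14.6%. Between older groups 0 passed adjustment, and by unadjusted p in limma the counts were 1 higher and 1 lower comparing AA with AV (1.4% and 3.1% of all genes), 0 and 2 comparing ADQ with AV (3.42% and 5.9%), and 1 and 1 comparing AA with ADQ (2.13% and 2.4%).

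The limit on the mean set the edge of the set. Just inside it were Kcnn4 with a mean of 7.91, Kcne3 with 9.90 and Kcne5 with 18.1. Just outside were Kcne4 with 4.40, Kcnj15 with 4.01 and Kcnv2 with 3.71, none of which was tested. Kcnj15, which encodes Kir4.2, was between 0 and 3.34 in YNG (median 1.44), 0 and 14.1 in AV (4.84), 0.978 and 10.9 in AA (2.91) and 0 and 12.2 in ADQ (4), a few reads per rat. Kcnn4 and Kcne5 were not called in any comparison, with differences in older rats of 0.02 ± 0.23 and 0.15 ± 0.22.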

How the data were processed

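Per the methods of the study, libraries were made from poly(A)-selected RNA, sequenced on an Ion instrument and aligned to rn6 with STAR (2.5.3a in the submitters' processing notes) in Partek, and gene counts were scaled by the median ratio. The deposited signal values are thus estimated reads after scaling of each library, with several rows for some genes. A library's step was taken as the most frequent positive value among genes with a single row. Of positive row values below 20 steps, 58.0% to 63.9% lay within 0.05 steps of a whole multiple. No count model was therefore used, and depth was estimated from the step. The rows of a gene identifier were summed. Genes with a mean of at least 5 (15598) entered limma 3.58.1 as log2(value + 1) (R 4.3.3; trend, no robust option) in a single two-sided model of 4 groups. Differences are on this scale and understate the change of low genes. A p from limma below 0.05 made a call, and Benjamini-Hochberg p values cover all genes tested. Older rats together are the mean of the 3 group means. Replicates are separate rats.

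The members, the lists and the rule for named genes were chosen with earlier results of these data known. Named were members with an adjusted p below 0.05 in any of 7 comparisons, in each class the 4 smallest p for older rats and the 2 smallest for AV against YNG, the 5 smallest p between each pair of older groups, and the 3 members on each side of the mean limit. Classes follow the gene names. Marker lists were summed values, with no test. RefSeq (GRCr8) gave promoters and neighbors, and all 74 members were matched by symbol, and the spans of 32 overlap another annotated gene. Protein sequences were not used here. The values of 1 further listed gene are not reported here. Alternatives were the pseudocount, the filter, upper quartile scaling, the row of highest mean, the series as covariate or alone, and leaving out each rat. Leaving out rats 3989 and 4107 together, and the interaction of group with series, were chosen after seeing the data. The model was tested on simulated data. Python 3.11.15, numpy 2.4.6, pandas 2.3.3 and matplotlib 3.10.9 were used.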

Additional observations from a re-analysis of the deposited data

Results flagged for a closer look

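Among the YNG values of 31 named members, 2 had a rat far from the others by Dixon's criterion for 10 samples, which chance meets in about 1 of 20 groups. The highest YNG value of Kcnj8 was 101 in rat V12, with a gap to the next rat of 0.476 of the range. The highest YNG value of Kcnn2 was 405 in rat V6, with a gap of 0.491 of the range. Groups of more than 10 rats were not examined in this way.

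The difference between AV and YNG varied between the rat-number series for Kcng3, a silent Kv subunit gene named here after its values were seen. The median value of Kcng3 was 13.8 in YNG and 24.6 in AV in series a, and 31.8 in YNG and 16.4 in AV in series b. The log2 difference in series b minus that in series a was -1.65, with an adjusted p of 0.0433 for the interaction in limma. Series b held 4 YNG rats and 6 AV rats. Of all 15598 genes, 697 passed adjustment for this interaction, and Kcng3 was the 1 of 74 members that did.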

How the results depend on the processing

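No paired analysis was possible because the labels number no replicates that groups share. The pseudocount, the limit on the mean, upper quartile scaling (which moved the median of all genes by at most 0.037), the row of highest mean and the series as covariate left each number of called members within 1.5 times. With series a alone, 19 members were called for AV and YNG (10 in all rats) and 3 for ADQ and AV (5 in all rats). With series b alone, the numbers were 6 for AV and YNG, 9 for AA and YNG (15 in all rats), 9 for ADQ and YNG (20), 4 for older rats and YNG (20), 3 for AA and AV (5), 12 for ADQ and AV and 2 for AA and ADQ (6). Without rats 3989 and 4107 they were 2 for AA and AV and 8 for ADQ and AV. The series hold fewer rats, and otherwise the cause was not tested. Shares of all genes called in these settings are not given here, so the counts cannot be read as particular to the members. Leaving out each rat gave 8 to 16 for AV and YNG (16 without AV rat 4572), 1 to 5 for AA and AV (1 without AV rat 3989, AA rat 4035 or AA rat 4077) and 5 to 10 for ADQ and AV (10 without AV rat 3890). It gave 14 to 19 for AA and YNG, 18 to 25 for ADQ and YNG, 14 to 24 for older rats and YNG, and 4 to 8 for AA and ADQ. No call of the named members changed direction under these settings. Of 74 such calls, 29 were lost in series a, 56 in series b, 8 without the 2 rats and 3 with upper quartile scaling. At a mean near 5 to 20, a few reads per rat limit what could be seen.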

Other observations

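AA rat 3988 held the highest AA value of members from different classes, among them Kcnc1, Kcnt1, Kcnk3, Kcng4 and Kcnk1. It had 4038 for Kcnc1 against 1961 in the next AA rat, 2007 for Kcnt1 against 1381, and 657 for Kcnk3 against 275. For Kcng4 it had 641 against 480, and for Kcnk1 1453 against 1364. The same rat had the highest summed interneuron markers of its group, 8961.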
